A study of Danio rerio with 24 samples.

Results

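Vitamin E deficient (E–) zebrafish embryos at 24 hours post-fertilization (hpf) were compared with vitamin E sufficient (E+) embryos of the same age. The comparison used 8 of the 24 pools of the series, with 4 pools of E– embryos and 4 pools of E+ embryos, chosen by the VitE status and age in the sample labels. Each pool held 10 whole embryos. The other 16 pools, E– and E+ embryos at 12 and 18 hpf, are given only where a 24 hpf result is set beside an earlier age. All embryos were of the Tropical 5D strain and came from group spawning of adults that had been kept on an E– or an E+ diet. Diet was the only difference named between the groups, and no gene was altered in either. Embryos were picked as morphologically normal at the prim-5 stage. Whether the pools of 1 diet stem from different spawnings is not given in the sources used here, so the tests measure the spread between pools, and VitE status cannot be told apart from other differences between the spawnings.

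α-Tocopherol is the form of vitamin E that vertebrates retain. It sits in membranes and lipoproteins, where it stops the chain reaction of lipid peroxidation, and the embryo receives its supply from the mother through the yolk. At the prim-5 stage the somites have formed, the brain is divided into regions, primitive red blood cells are about to circulate and pigment is starting to appear. Glycolysis, the mitochondrial respiratory chain and the use of yolk lipid provide the energy for this growth, and the mTOR pathway links the supply of nutrients to protein synthesis.

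The libraries counted reads near the 3′ end of polyadenylated RNA. Total gene counts ranged from 10537272 to 13900515 in the E– pools and from 13381870 to 19311530 in the E+ pools, so the E– pools tended to be shallower, although E– replicate 2 was above E+ replicate 4 (p = 0.0571, exact permutation test, two-sided, n = 4 pools each). Reads fell on 22435 to 23209 genes per E– pool and on 23411 to 23651 genes per E+ pool (p = 0.0286, exact permutation test, two-sided, the smallest p that 4 against 4 pools allow, and adjusted p = 0.143 over 10 library measures). After the counts of every pool were thinned to the smallest total, the difference in the number of genes with reads was -141 (p = 0.771, exact permutation test). The gene with the most counts, ENSDARG00000080337, which has no symbol in the names used here, took 25.1% to 28.1% of the gene counts of a pool. Of the 27528 genes with reads in the 8 pools, 17405 had enough reads to be tested. Levels are given as CPM (counts scaled to a common library size in units of 1e+06 counts) after scaling of the library sizes. They compare 1 gene between pools. In bulk embryos, fewer cells of a type and less RNA per cell cannot be told apart.

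The diets were compared gene by gene with edgeR's quasi-likelihood F-test, and genes with a Benjamini–Hochberg false discovery rate (FDR) under 0.1 were called differentially expressed (DE). The call covered 21 of the 17405 genes (0.121%), of which 11 rose in E– embryos (0.0632%) and 10 fell (0.0575%). Of the 21, 9 had a log2 fold change (log2FC, E– minus E+) of at least 1 in size. Across all genes tested the median log2FC was 0.0023, the quartiles were -0.14 and 0.17, and the median standard error (SE) of a log2FC was 0.21. An unadjusted p under 0.05 was found in 1366 genes (7.85%), with 712 higher (4.09%) and 654 lower (3.76%) in E– pools. Every E– pool lay above every E+ pool in 421 genes (2.42%) and below every E+ pool in 372 genes (2.14%). The number called varied with the pool left out. It was 2 without E+ replicate 2 and 13 without E+ replicate 4. Without E+ replicate 1 or 3 it was 21, with 14 and 13 of them among the 21 of the main fit. It was 10 without E– replicate 1, 18 without E– replicate 2, 35 without E– replicate 3 and 10 without E– replicate 4. With DESeq2 it was 77, and it was 160 when genes of low count were kept. In a fit of all 24 pools by diet and age it was 0 of 19597 genes tested. This design is the closest to the paper's methods, but the paper does not give the rule of its gene filter. The fit of 24 pools was not run with genes of low count kept, so the 0 does not stand for the paper's own result. All 21 called genes kept their direction and an unadjusted p under 0.05 in each of the 19 other fits in which they were tested. These fits reuse the pools on which the genes were chosen, so this agreement is not independent support. All 21 also had the same sign within both sequencing lanes, which had to be so for every called gene without overlapping pools. The call held in at least 4 of the 8 fits that left out 1 pool for 11 of the 21 genes. It held in 3 of the 8 for fzd6, zgc:173585 and MT-ND5. It held in 2 for ins, PYGM (ENSDARG00000013317), si:dkeyp-1h4.6, ENSDARG00000103837 and zgc:174154, and in 1 for DOLPP1 and tnpo2a.

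**Figure D1:**
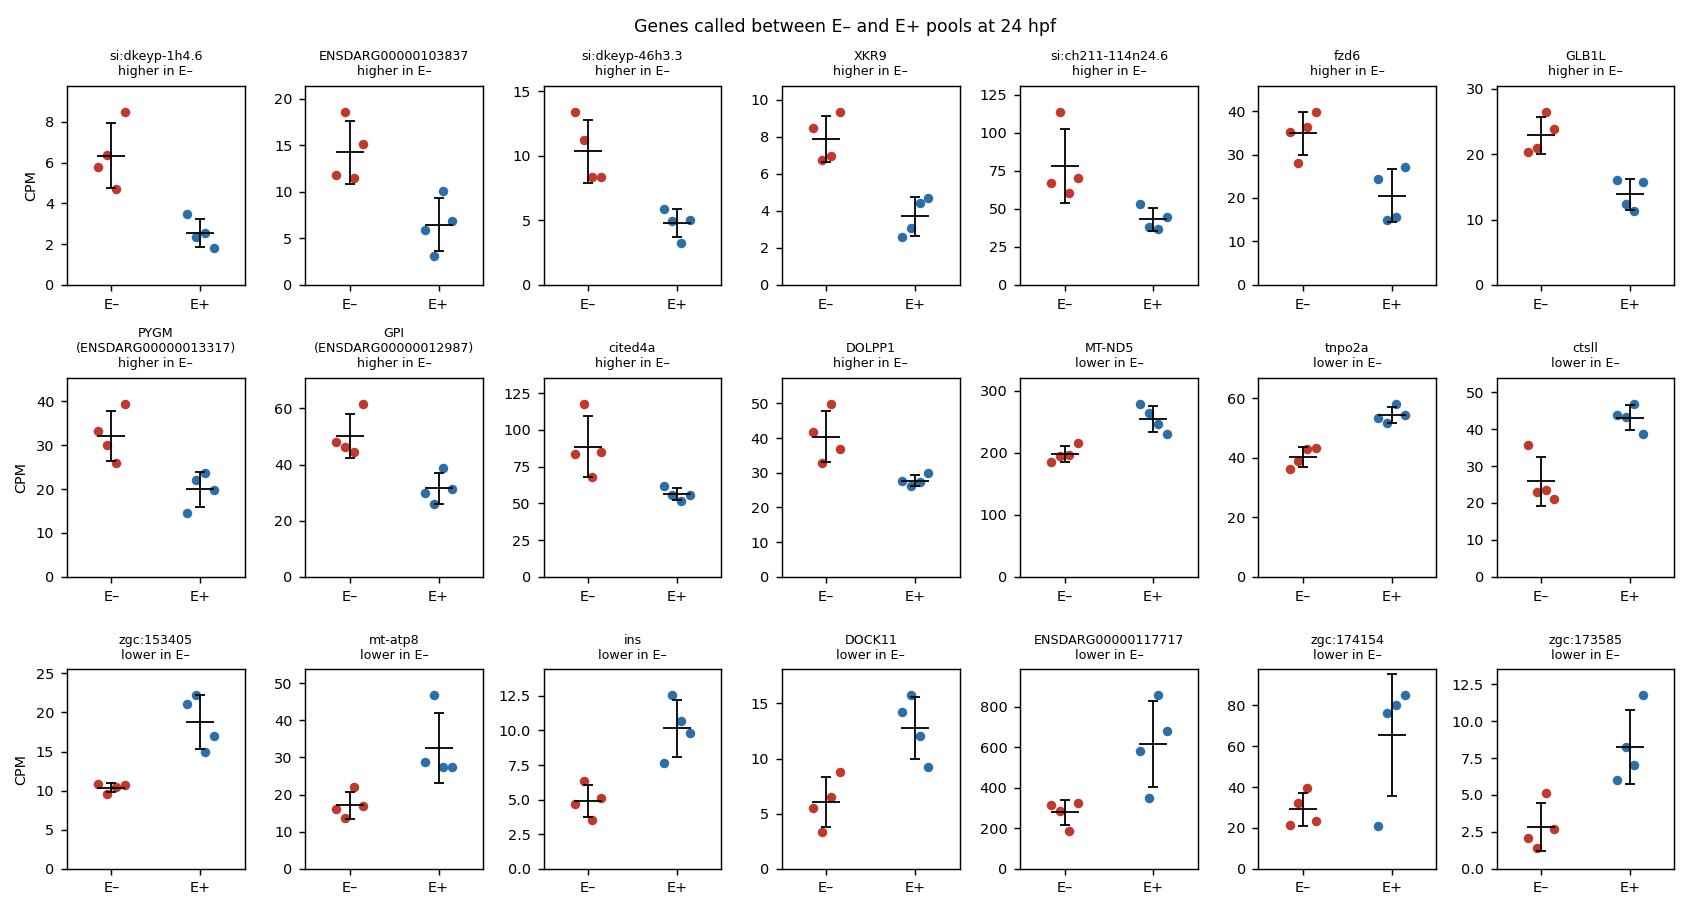
CPM of the 21 called genes in each of the 4 E– pools (red, left) and 4 E+ pools (blue, right) at 24 hpf. Each point is 1 pool in the order of the replicate numbers, black bars are the mean and SD, and each y axis starts at 0. The pools overlap between the diets in 1 of the 21 genes, zgc:174154, where E+ replicate 1 is at 21.2 CPM.

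Enzymes that feed glycolysis were among the genes that rose. GPI (ENSDARG00000012987) encodes glucose-6-phosphate isomerase, which turns glucose 6-phosphate into fructose 6-phosphate. It had 48.0, 46.3, 44.6 and 61.7 CPM in E– pools, against 29.7, 26.1, 39.0 and 31.2 CPM in E+ pools. All E– pools were above all E+ pools, and the gene rose by a log2FC of 0.67 (SE 0.12, FDR = 0.0265). PYGM (ENSDARG00000013317), a glycogen phosphorylase that releases glucose units from glycogen, had 33.3, 30.0, 26.0 and 39.5 CPM in E– pools, against 14.5, 22.0, 23.7 and 19.8 CPM in E+ pools. Its pools did not overlap either, with a log2FC of 0.68 (SE 0.14, FDR = 0.0744). A second gene of the same symbol, PYGM (ENSDARG00000055518), was not called and had a log2FC of -0.23 (SE 0.13). The call of PYGM (ENSDARG00000013317) held in 2 of the 8 fits that left out 1 pool, and that of GPI in 6 of 8, the exceptions being E– replicate 4 and E+ replicate 2.

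A set of regulators and membrane proteins rose as well. cited4a belongs to a family of coactivators that bind CBP and p300. Its level was 84.0, 118, 68.0 and 85.0 CPM in E– pools, against 62.2, 55.8, 52.0 and 56.0 CPM in E+ pools, with E– replicate 2 the highest and no overlap. Its log2FC was 0.65 (SE 0.12, FDR = 0.0238). fzd6, a Wnt receptor of the Frizzled family known for planar cell polarity, had 35.1, 28.1, 36.4 and 39.8 CPM in E– pools, against 24.3, 14.9, 15.7 and 27.1 CPM in E+ pools. The lowest E– pool lay just above the highest E+ pool, and the log2FC was 0.77 (SE 0.16, FDR = 0.0598). XKR9, of the XK-related family of membrane proteins, rose by a log2FC of 1.08 (SE 0.23, FDR = 0.0750), with 6.75 to 9.36 CPM in E– pools and 2.59 to 4.71 CPM in E+ pools.

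Among enzymes of sugar chains, DOLPP1, a phosphatase that recycles the dolichol carrier of N-glycosylation, had 41.8, 32.9, 49.9 and 36.8 CPM in E– pools, against 27.6, 26.0, 27.2 and 29.9 CPM in E+ pools. The E+ pools lay close together and the E– pools were all above them (log2FC 0.54, SE 0.12, FDR = 0.0838), and the call held in 1 of the 8 fits that left out 1 pool. GLB1L, related to the lysosomal β-galactosidase, had 20.2 to 26.5 CPM in E– pools and 11.3 to 16.0 CPM in E+ pools (log2FC 0.73, SE 0.14, FDR = 0.0443). The other 4 genes that rose have no known role in the names used here. They were si:ch211-114n24.6 (log2FC 0.86, SE 0.15, FDR = 0.0238), si:dkeyp-46h3.3 (log2FC 1.12, SE 0.21, FDR = 0.0442), si:dkeyp-1h4.6 (log2FC 1.31, SE 0.26, FDR = 0.0535) and ENSDARG00000103837 (log2FC 1.13, SE 0.24, FDR = 0.0750). None of these 4 had overlapping pools.

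The genes that fell included insulin. ins, made by the first β-cells of the pancreas, had 4.68, 6.32, 3.52 and 5.11 CPM in E– pools, against 7.62, 12.5, 10.7 and 9.79 CPM in E+ pools. The highest E– pool was below the lowest E+ pool. The log2FC was -1.04 (SE 0.21, FDR = 0.0535), and the call held in 2 of the 8 fits that left out 1 pool. ins had too few reads to be tested at 12 hpf and was not called at 18 hpf (log2FC -0.64, FDR = 0.348).

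Both mitochondrially encoded genes that were called fell. mt-atp8, a small subunit of ATP synthase, had 16.0, 13.6, 22.1 and 16.8 CPM in E– pools, against 28.7, 46.7, 27.4 and 27.4 CPM in E+ pools. E+ replicate 2 was far above the other E+ pools, but the remaining E+ pools were also above every E– pool (log2FC -0.93, SE 0.16, FDR = 0.0238). Without E+ replicate 2 the log2FC was -0.70 and without E– replicate 1 it was -0.9, and neither was called. MT-ND5, a subunit of complex I, had 185, 195, 197 and 215 CPM in E– pools, against 279, 264, 246 and 230 CPM in E+ pools. The groups did not overlap, and the change was small (log2FC -0.36, SE 0.07, FDR = 0.0598). The call of MT-ND5 held in 3 of the 8 fits that left out 1 pool, and with the replicate number as a block its FDR was 0.113. The reading frames of mt-atp8 and MT-ATP6 overlap in vertebrates, so reads there may be assigned to either gene or to neither, and the level of mt-atp8 is uncertain in that respect.

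Of the genes of trafficking and proteolysis, tnpo2a, an import receptor of the transportin family that carries proteins into the nucleus, had 36.4, 39.1, 43.0 and 43.4 CPM in E– pools, against 53.6, 51.7, 58.3 and 54.3 CPM in E+ pools. The spread within each diet was small beside the gap between them (log2FC -0.43, SE 0.09, FDR = 0.0838), and yet the call held in only 1 of the 8 fits that left out 1 pool. ctsll, named for its likeness to cathepsin L, a lysosomal protease, had 35.8, 23, 23.5 and 21.1 CPM in E– pools, against 43.7, 43.3, 46.9 and 38.6 CPM in E+ pools (log2FC -0.74, SE 0.13, FDR = 0.0238). E– replicate 1 was the highest E– pool and still below all E+ pools. DOCK11, an activator of the small GTPase Cdc42, had 5.49, 3.34, 6.53 and 8.78 CPM in E– pools, against 14.2, 15.7, 12.0 and 9.21 CPM in E+ pools (log2FC -1.10, SE 0.22, FDR = 0.0598). E– replicate 4 and E+ replicate 4 were nearly level, and the other pools lay further apart.

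The call with the smallest FDR belonged to a gene with no symbol. ENSDARG00000117717 had 317, 286, 187 and 324 CPM in E– pools, against 584, 348, 856 and 679 CPM in E+ pools (log2FC -1.15, SE 0.17, FDR = 0.0104). It was the only gene called in all 8 fits that left out 1 pool. Over all 19 other fits it was called in 17. Its FDR was 0.220 in the fit of all 24 pools and at most 0.463 in any fit. zgc:153405 had 9.52 to 10.9 CPM in E– pools and 14.9 to 22.2 CPM in E+ pools (log2FC -0.86, SE 0.15, FDR = 0.0238), and zgc:173585 had 1.38 to 5.16 CPM in E– pools and 6.01 to 11.7 CPM in E+ pools (log2FC -1.55, SE 0.30, FDR = 0.0481). zgc:174154 was called although its pools overlapped. It had 21.4, 32.0, 39.4 and 23.6 CPM in E– pools, against 21.2, 76.4, 80.1 and 84.9 CPM in E+ pools (log2FC -1.17, SE 0.25, FDR = 0.0850).

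Just outside the threshold, 3 genes shared an FDR of 0.113. sesn3 encodes a sestrin, a stress-induced inhibitor of mTOR complex 1, and had 54.6, 55.5, 50.9 and 70.1 CPM in E– pools, against 38.6, 47.7, 39.0 and 41.5 CPM in E+ pools (log2FC 0.47, SE 0.10). PSMB4, a subunit of the proteasome core, had 234, 236, 245 and 224 CPM in E– pools, against 302, 313, 271 and 277 CPM in E+ pools (log2FC -0.31, SE 0.07). The pools of both genes did not overlap. EGLN3, a prolyl hydroxylase that marks hypoxia-inducible factor for destruction and is itself induced by low oxygen, had 13.4, 22.2, 10.7 and 31.8 CPM in E– pools, against 7.41, 10.9, 10.9 and 8.92 CPM in E+ pools (log2FC 1.03, SE 0.23). E– replicates 2 and 4 were the high pools, and E– replicate 3 lay within the E+ range. DHRS7C (ENSDARG00000039453), a dehydrogenase of muscle, had 13.1 to 18.0 CPM in E– pools and 20.8 to 26.1 CPM in E+ pools (log2FC -0.58, SE 0.13, FDR = 0.142).

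The diet contrast was also fitted in the earlier pools, which share no sample with the 24 hpf comparison, and their values stand beside the 24 hpf calls. Whether they stem from other spawnings or parents is not given. A sign shared between ages therefore cannot tell VitE status apart from other differences between the spawnings. At 12 hpf 7 of 17163 genes were called (0.0408%) and at 18 hpf 312 of 17292 (1.8%). Of the 11 genes that rose at 24 hpf, 9 of 10 tested had a positive log2FC at 12 hpf and 9 of 11 at 18 hpf. Of the 10 that fell, all 9 tested had a negative log2FC at 12 hpf and 9 of 10 at 18 hpf. Over all genes tested at both ages, the sign at 24 hpf was shared by 54.9% at 12 hpf and by 58.6% at 18 hpf. In the same direction as at 24 hpf, 8 of the 21 were called at 18 hpf, 2 among those that rose and 6 among those that fell, and 1 was called at 12 hpf.

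GPI (ENSDARG00000012987) had a log2FC of 1.04 at 12 hpf (FDR = 0.413), 0.65 at 18 hpf (FDR = 0.00347) and 0.67 at 24 hpf. ENSDARG00000117717 was lower in E– pools at all 3 ages and called at each, with a log2FC of -0.93 at 12 hpf (FDR = 0.0515), -1.61 at 18 hpf (FDR = 1.54e-05) and -1.15 at 24 hpf. MT-ND5 had -0.44 at 12 hpf (FDR = 0.478), -0.45 at 18 hpf (FDR = 0.00465) and -0.36 at 24 hpf. Other genes had their difference mainly in the values of 24 hpf. cited4a had 0.02 at 12 hpf and -0.29 at 18 hpf, XKR9 had 0.40 and -0.20, and zgc:174154 had -0.33 and 0.25. When the difference between ages was itself tested over the 24 pools, 3 of 19597 genes had an FDR under 0.1 (0.0153%), and none of the 21 called genes was among them, so a change particular to 24 hpf was not shown for any of the 21.

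**Figure D2:**
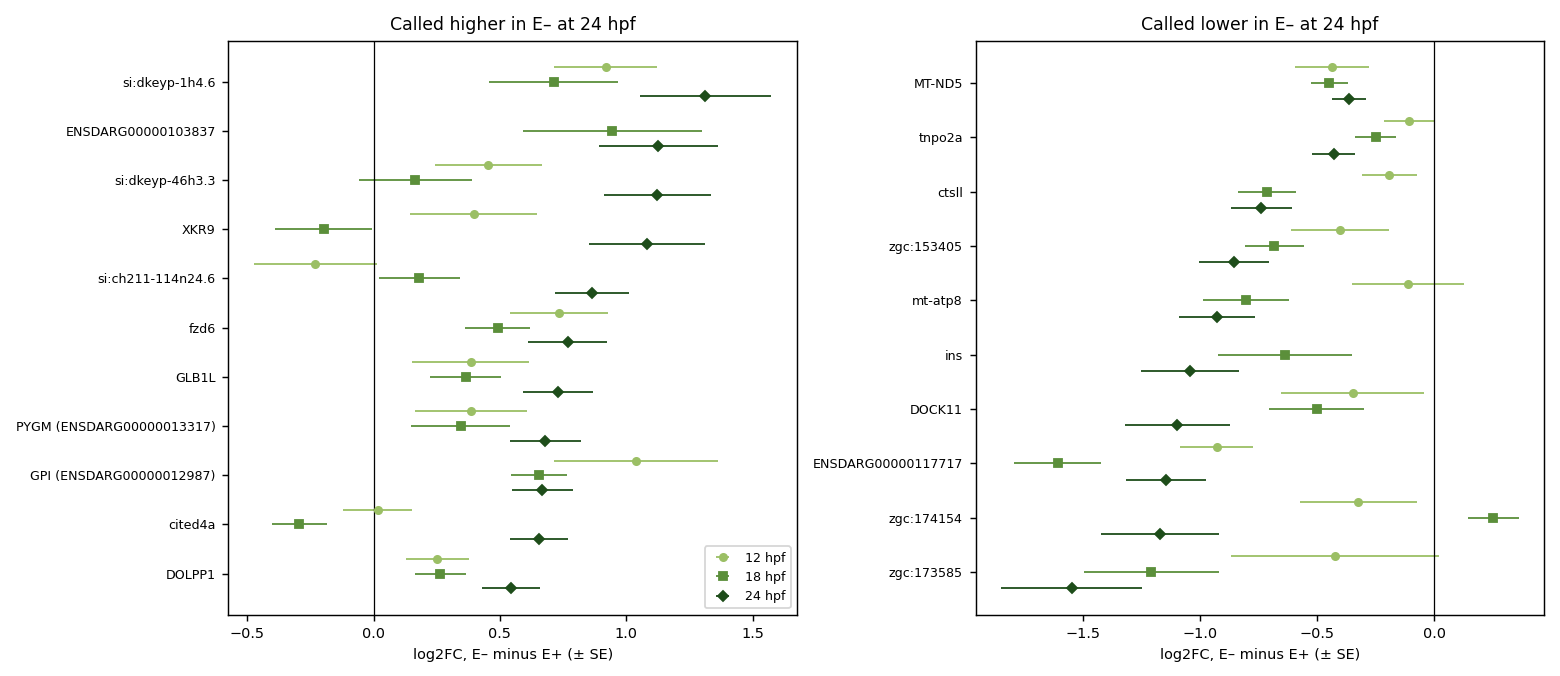
log2FC (E– minus E+) with its SE at 12, 18 and 24 hpf for the genes called at 24 hpf, those that rose in E– embryos on the left and those that fell on the right. Each age was fitted on its own 8 pools, and ENSDARG00000103837 and ins have no value at 12 hpf. GPI and MT-ND5 lie at a like distance from 0 at 18 and 24 hpf, whereas cited4a and zgc:174154 lie on opposite sides of 0 at these ages.

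Groups of genes were described by the members tested, with the counts over all genes beside them. For every list, the share at p under 0.05 is to be read against 7.85% of all genes, 4.09% higher and 3.76% lower. In the glycolysis list 36 genes were tested, and GPI (ENSDARG00000012987) was the only call. No other gene of this symbol was called. An unadjusted p under 0.05 was found in 7 genes that were higher and 2 that were lower in E– pools, or 25.0% of the list against 7.85% of all genes. The median log2FC was 0.12 and 25 of 36 were positive, where 50.4% of all genes tested were positive. The list's 7 became 12 without E+ replicate 3 and 3 in the fit of all 24 pools. ALDOA (ENSDARG00000011665), an aldolase, had 154, 159, 159 and 199 CPM in E– pools, against 136, 134, 126 and 135 CPM in E+ pools (log2FC 0.34, FDR = 0.175), whereas the more abundant copy ALDOA (ENSDARG00000034470) had 371 to 484 CPM in E– pools and 396 to 439 CPM in E+ pools (log2FC 0.0022).

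Lactate dehydrogenase A, LDHA, had 39.9, 41.3, 46.2 and 51.4 CPM in E– pools, against 27.4, 32.1, 48.8 and 26.8 CPM in E+ pools. E+ replicate 3 lay within the E– range (log2FC 0.40, FDR = 0.456). ALDOC (ENSDARG00000019702) showed the same high E+ replicate 3, with 54.9 to 74.6 CPM in E– pools and 34.6, 43.7, 56.3 and 42.8 CPM in E+ pools (log2FC 0.46, FDR = 0.232). PFKFB4, which sets the level of the glycolytic activator fructose 2,6-bisphosphate, had 50.0 to 53.5 CPM in E– pools and 34.9 to 47.2 CPM in E+ pools (log2FC 0.35, FDR = 0.292). In the other direction, the pyruvate kinase PKLR had 15.4, 18.4, 14.4 and 23.9 CPM in E– pools, against 26.0, 38.1, 24.5 and 18.2 CPM in E+ pools (log2FC -0.57, FDR = 0.350). Hexokinase HK2 had a log2FC of -0.41 (FDR = 0.621). Neither the 7 genes tested of the pentose phosphate pathway nor the 29 of the tricarboxylic acid cycle and pyruvate dehydrogenase had a p under 0.05, and their median log2FC values were -0.05 and -0.02.

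The proteasome degrades proteins marked by ubiquitin. None of its 41 subunit genes was called, and 12 had an unadjusted p under 0.05, all of them lower in E– pools (29.3% of the list against 7.85% of all genes). The median log2FC was -0.17 and 37 of 41 were negative. The count was 4 without E+ replicate 2 and 7 without E– replicate 4. The summed level was 3186, 3294, 3508 and 2823 CPM in E– pools, against 3745, 3772, 3319 and 3512 CPM in E+ pools, so the sums overlapped, with E– replicate 3 above E+ replicate 3. Among single subunits, PSMB3 of the core had 160, 158, 169 and 144 CPM in E– pools, against 190, 202, 192 and 174 CPM in E+ pools, with no overlap (log2FC -0.27, FDR = 0.257). psmc1b, an ATPase of the regulatory particle, had 26.2 to 31.5 CPM in E– pools and 31.8 to 45.9 CPM in E+ pools (log2FC -0.34, FDR = 0.425).

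The mitochondrial genome encodes 13 subunits of the respiratory chain and ATP synthase. All 13 were tested, and 2 were called and fell, where 0.121% of all genes were called. At p under 0.05, 3 were lower and 0 higher (23.1% against 7.85% of all genes). Of the 13, 11 had a negative log2FC, with a median of -0.13. Without E– replicate 2 the count of lower genes with a p under 0.05 was 7, and it was 2 with DESeq2 or without E– replicate 4. None of the 13 was called without E– replicate 1, without E+ replicate 2 or in the fit of all 24 pools. Beside the called mt-atp8 and MT-ND5, MT-CO3 had 2955, 3001, 3094 and 2823 CPM in E– pools, against 3638, 2991, 3274 and 3007 CPM in E+ pools (log2FC -0.12, FDR = 0.631). MT-CO1 was at the other end, with a log2FC of 0.11 (FDR = 0.748), and MT-CYB had 0.0032 (FDR = 0.997). The sum of the 13 took 1.62% to 1.90% of the gene counts in E– pools and 1.75% to 2.01% in E+ pools (p = 0.314, exact permutation test, two-sided, n = 4 pools each).

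Of the 79 nuclear genes for respiratory chain and ATP synthase subunits none was called, and 4 were higher and 3 lower in E– pools at p under 0.05 (8.86% against 7.85% of all genes). The number of lower ones lay between 1 and 8 in the other fits. Of the 79, 54 had a negative log2FC, with a median of -0.06. Among the lower ones, atp5f1e, a small subunit of ATP synthase, had 154, 157, 163 and 131 CPM in E– pools, against 186, 178, 173 and 164 CPM in E+ pools, with no overlap (log2FC -0.21, FDR = 0.460). The 4 included cox6b1, a subunit of complex IV, with 22.9, 22.3, 19.0 and 34.8 CPM in E– pools, against 12.2, 15.9, 19.0 and 13.6 CPM in E+ pools (log2FC 0.69, SE 0.16, FDR = 0.142). E– replicate 3 and E+ replicate 3 were nearly level. The same gene was called at 18 hpf, with a log2FC of 1.14 (FDR = 7.30e-04). ndufa4b, also a subunit of complex IV by its mammalian counterpart, had a log2FC of 0.53 at 24 hpf (FDR = 0.425) and 1.57 at 18 hpf (FDR = 0.00103).

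**Figure D3:**
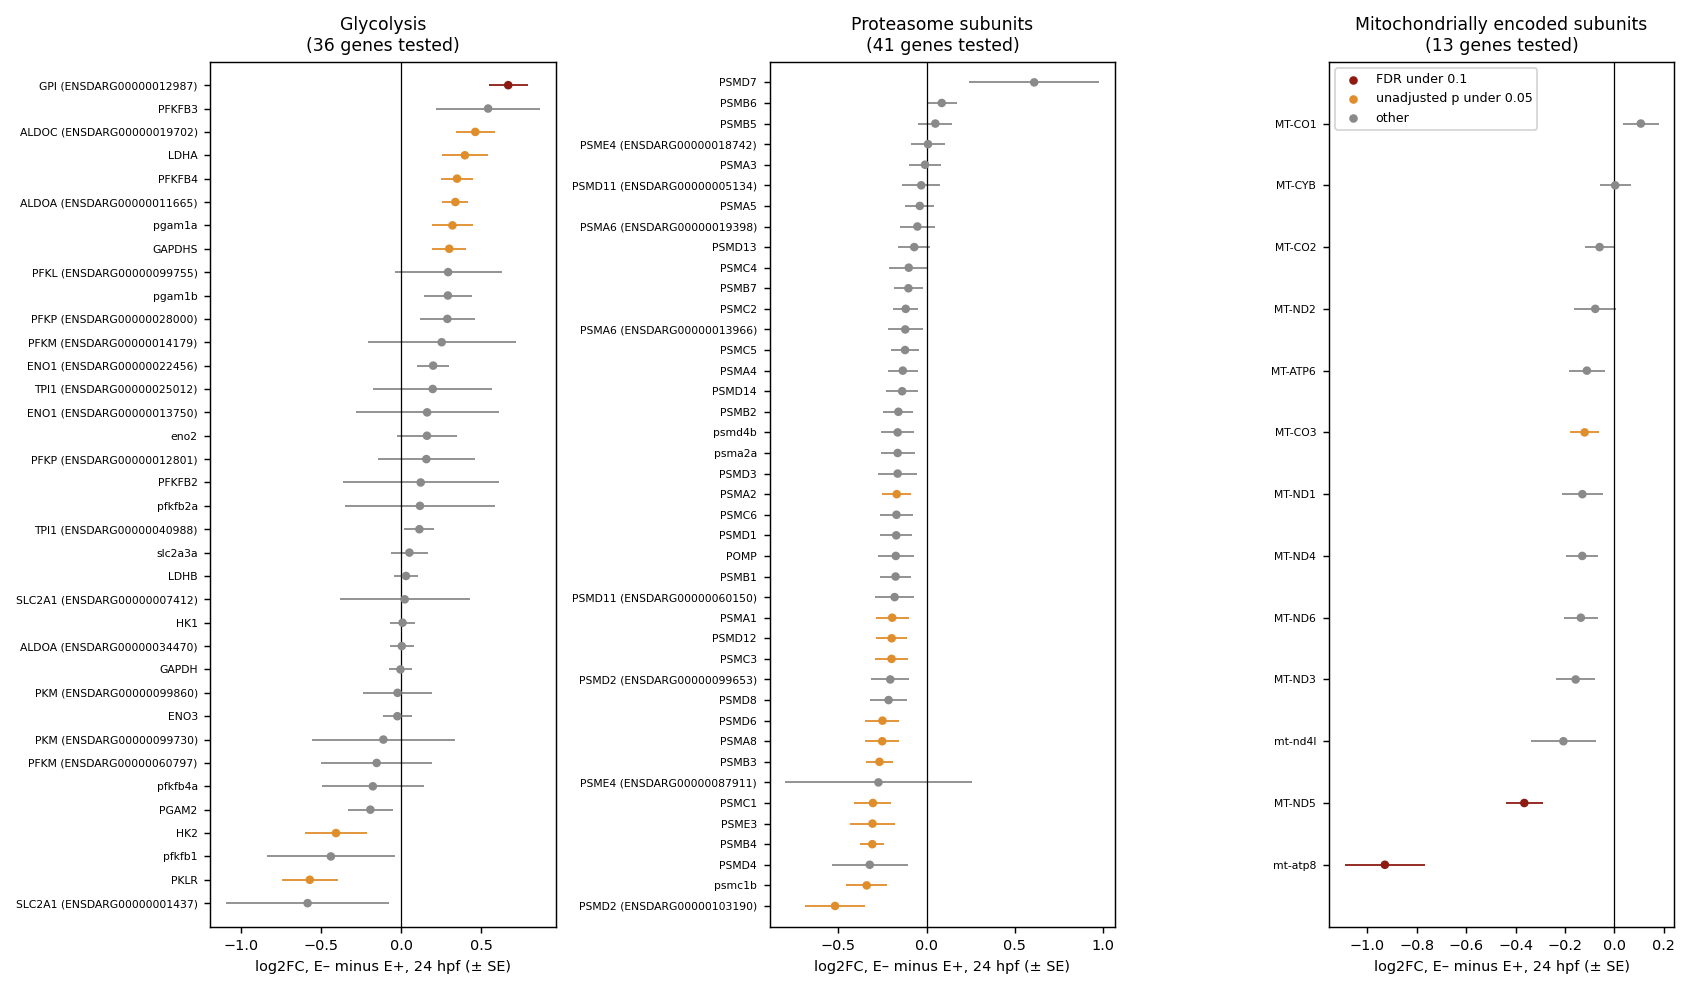
log2FC (E– minus E+, horizontal axis) with its SE for each tested gene of the glycolysis, proteasome and mitochondrially encoded lists at 24 hpf. Dark red marks an FDR under 0.1 and orange an unadjusted p under 0.05. In the glycolysis list 25 of 36 points lie right of 0, in the proteasome list 37 of 41 lie left of it and in the mitochondrial list 11 of 13 lie left of it.

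The mTOR pathway was described through 76 genes, of which none was called, 2 were higher and 2 lower at p under 0.05 (5.26% against 7.85% of all genes), with a median log2FC of 0.01. In the other fits each of these counts at p under 0.05 lay between 1 and 4. A call in the list also depended on the fit. With DESeq2, the newer quasi-likelihood method, a robust prior or the replicate number as a block, 1 member was called. The same number was called with all genes that had a read and without E– replicate 3, and none in the remaining fits. Both of the higher genes were sestrins, sesn3 given above and sesn2, which had 5.67, 6.75, 4.47 and 4.82 CPM in E– pools, against 3.22, 2.7, 5.05 and 2.61 CPM in E+ pools (log2FC 0.67, FDR = 0.507). sesn3 was also called at 18 hpf, with a log2FC of 0.52 (FDR = 0.0079). The third sestrin gene, SESN1, which was on the list of cell death and its control, had 2.88, 1.23, 2.06 and 2.32 CPM in E– pools, against 3.99, 3.26, 2.94 and 2.97 CPM in E+ pools, so that it lay on the other side of 0 (log2FC -0.64, SE 0.31, FDR = 0.635). The lower genes of the mTOR list were rragd, a GTPase that brings mTOR complex 1 to the lysosome (log2FC -0.76, FDR = 0.572), and eif4ebp1, a repressor of translation that mTOR phosphorylates (log2FC -0.24, FDR = 0.575). The kinase MTOR had 21.1 to 23 CPM in E– pools and 19.1 to 21.6 CPM in E+ pools (log2FC 0.11, FDR = 0.859), and RPTOR, the scaffold of complex 1, had 5.88 to 8.59 and 5.87 to 8.53 CPM in E– and E+ pools (log2FC -0.04, FDR = 0.978).

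Enzymes against peroxides and superoxide, the chemistry that α-tocopherol opposes, had no call among 40 genes tested. Of these, 2 had a p under 0.05 (5.00% against 7.85% of all genes). The 2 became 4 without E+ replicate 3 and 1 without E– replicate 4, E+ replicate 2 or E+ replicate 4. GPX4, the peroxidase that reduces lipid peroxides in membranes, had 172, 202, 199 and 160 CPM in E– pools, against 200, 187, 176 and 169 CPM in E+ pools, so the groups overlapped fully (log2FC 0.0023, SE 0.08). Its second copy gpx4a had a log2FC of -0.18 (SE 0.11, FDR = 0.726). SOD1, which removes superoxide in the cytosol, had 20.1 to 23 CPM in E– pools and 17.6 to 26.5 CPM in E+ pools, and the Nrf2 targets NQO1 and HMOX1 had log2FC values of -0.04 (SE 0.14) and -0.06 (SE 0.17). The 2 genes with a p under 0.05 were gpx3 (log2FC 0.95, FDR = 0.514) and the glutathione reductase GSR (log2FC -0.40, FDR = 0.552).

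Genes that carry vitamin E and lipoproteins had no call among 23 tested, with 1 at p under 0.05 (4.35% against 7.85% of all genes). Without E+ replicate 3 the list had 4 higher and 1 lower at that p, and without E+ replicate 1 it had 3 lower. The 1 gene was apobb.1, an apolipoprotein B of the yolk syncytial layer and the most abundant of the ones named here, with 1043, 767, 1024 and 1103 CPM in E– pools, against 1032, 1404, 1398 and 1118 CPM in E+ pools (log2FC -0.33, SE 0.10, FDR = 0.308). E– replicate 2 was the lowest pool, and E+ replicates 1 and 4 lay within or near the E– range. TTPA, the α-tocopherol transfer protein, was near the limit of the counts, with 0.145 to 1.72 CPM in E– pools and 0.0699 to 1.66 CPM in E+ pools, and a difference was not detectable at this depth (log2FC -0.08, SE 0.68). TTPAL, a related gene, had 3.49 to 5.76 CPM in E– pools and 4.36 to 6.22 CPM in E+ pools.

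Protein folding and the unfolded protein response were covered by 33 genes, with no call, 6 genes lower and 1 higher at p under 0.05 (21.2%), 25 negative and a median of -0.08. The 6 included folding factors of the endoplasmic reticulum. PDIA3, a disulfide isomerase, had 166, 149, 171 and 170 CPM in E– pools, against 170, 201, 200 and 215 CPM in E+ pools (log2FC -0.26, FDR = 0.340), and HSPA5, the chaperone BiP, had 309 to 390 CPM in E– pools and 360 to 478 CPM in E+ pools (log2FC -0.18, FDR = 0.614). The 6 became 1 without E– replicate 4, 3 without E+ replicate 2 and 2 without E+ replicate 4. In the other direction the cytosolic chaperone HSP90AB1 had 4166 to 4379 CPM in E– pools and 3730 to 4152 CPM in E+ pools (log2FC 0.10, FDR = 0.614). A stress-induced Hsp70 gene that was not on the list, hspa1b, was chosen after its values were seen. It had 3.24, 9.01, 5.41 and 4.63 CPM in E– pools, against 3.57, 1.60, 2.01 and 1.01 CPM in E+ pools (log2FC 1.45, FDR = 0.142).

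Synthesis of nucleotides and the subunits of RNA polymerases gave 8 genes lower and 1 higher at p under 0.05 among 52 tested (17.3%), with no call and a median of -0.06. POLR2E (ENSDARG00000026183), shared by the RNA polymerases, had 69.0, 75.0, 77.3 and 71.7 CPM in E– pools, against 91.0, 104, 79.4 and 93.8 CPM in E+ pools, with no overlap (log2FC -0.33, FDR = 0.232). RRM1, the large subunit of ribonucleotide reductase, had 113 to 135 CPM in E– pools and 138 to 156 CPM in E+ pools (log2FC -0.22, FDR = 0.445). In methyl donor metabolism 2 of 34 genes had a p under 0.05 (5.88%, below the 7.85% of all genes). Both were lower in every E– pool than in every E+ pool, as were 2.14% of all genes. The maintenance DNA methyltransferase DNMT1 had 72.0, 68.0, 74.0 and 72.7 CPM in E– pools, against 82.0, 91.1, 82.8 and 87.4 CPM in E+ pools (log2FC -0.26, FDR = 0.336). AHCY, which clears the S-adenosylhomocysteine that methylation leaves, had 150 to 185 CPM in E– pools and 190 to 223 CPM in E+ pools (log2FC -0.23, FDR = 0.425).

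In the list on oxygen sensing, ascorbate-dependent hydroxylases and collagen, 39 genes were tested with no call, and 2 were higher and 1 lower at p under 0.05. This share of 7.69% was near the 7.85% of all genes, and the median log2FC was -0.0085. In the other fits 1 to 5 were higher and 0 to 3 lower. The 2 were EGLN3, given above, and EGLN2, a hydroxylase of the same family, with 9.72, 9.66, 7.39 and 25.1 CPM in E– pools, against 5.17, 10.3, 9.28 and 7.32 CPM in E+ pools (log2FC 0.68, FDR = 0.539). E– replicate 4 alone was above the E+ range. EGLN1 (ENSDARG00000004632) had 17.6 to 24.1 CPM in E– pools and 17.8 to 23.6 CPM in E+ pools, and HIF1A had a log2FC of -0.15 (SE 0.08, FDR = 0.679).

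Of 24 genes for the ensheathment of neurons and for glia none was called, and the median log2FC was 0.01. At p under 0.05, 3 were found, all higher in E– pools (12.5% against 7.85% of all genes). cntnap1, a protein of the axon at the edge of the myelin sheath, had a log2FC of 0.66 (FDR = 0.524), and mbpa, a myelin basic protein gene, had 1.53 to 2.41 CPM in E– pools and 1.96 to 3.04 CPM in E+ pools. The 3 became 0 without E+ replicate 2 and 1 without E– replicate 4 or E+ replicate 3.

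Markers of cell types and stages were used to describe what the pools held. The lists of heart, endothelium, and neural progenitors and neurons had no gene at p under 0.05 among 12, 9 and 22 tested. Somite and skeletal muscle genes had 1 among 26, with a summed level of 17163 to 18539 CPM in E– pools and 16296 to 20915 CPM in E+ pools. Genes that change with age in normal embryos were taken from the E+ pools at 12 and 18 hpf. The 200 that rose most clearly between these ages had a median log2FC of -0.013 between the diets at 24 hpf. Of the 200, 7 were higher and 10 lower at p under 0.05 (8.5% against 7.85% of all genes). Those that fell with age had a median of -0.0034 over the 191 tested, with 9 higher and 14 lower (12.0%) and 1 called lower. Both medians were close to the 0.0023 of all genes.

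Epidermal genes mostly had slightly higher values in E– pools. Of 17 tested, 15 had a positive log2FC (median 0.13), and none was called. At p under 0.05, 4 were higher (23.5% against 7.85% of all genes). The summed level of the list was 22945, 22370, 23440 and 23676 CPM in E– pools, against 21558, 22341, 21059 and 19900 CPM in E+ pools. The lowest E– pool was just above the highest E+ pool. This gap was not tested, and the sums of many lists were examined. epcam, an epithelial adhesion protein, had 106, 99.6, 105 and 111 CPM in E– pools, against 76.8, 87.3, 84.0 and 91.1 CPM in E+ pools (log2FC 0.31, SE 0.08, FDR = 0.202), and it was called at 18 hpf (log2FC 0.44, FDR = 0.0214). The 4 became 7 without E– replicate 2, 2 without E+ replicate 4 and 1 in the fit of all 24 pools. The keratin krt4 had 8960 to 9501 CPM in E– pools and 8114 to 8915 CPM in E+ pools (log2FC 0.12, FDR = 0.445). The part of epidermal cells in the results of other genes was not tested.

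All 13 genes of primitive red blood cells had a positive log2FC, with a median of 0.24 and 5 at p under 0.05 (38.5%), and none was called. The summed level was 3565, 3409, 3483 and 3439 CPM in E– pools, against 3937, 2441, 3159 and 2004 CPM in E+ pools. The E– pools lay close together within the E+ range, and E+ replicates 2 and 4 were the low pools. Without E+ replicate 4 the 5 became 1, without E– replicate 1 they became 2, and without E– replicate 4 or E+ replicate 2 they became 3. The number was also 1 with DESeq2, with a robust prior and in the fit of all 24 pools. hbae3, an embryonic α-globin, had 1086, 1135, 1075 and 1091 CPM in E– pools, against 1293, 723, 988 and 622 CPM in E+ pools (log2FC 0.28, FDR = 0.622). alas2, which makes the first precursor of heme in red blood cells, had 21.6 to 26.4 CPM in E– pools and 12.8 to 22.5 CPM in E+ pools (log2FC 0.43, FDR = 0.439). The embryonic globins are tandem copies, so reads that match more than 1 copy may be missing or split, and the values of single copies are uncertain.

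Pigment and lens genes had members on both sides. Among 15 tested genes of the neural crest and pigment cells 2 were higher and 3 lower at p under 0.05, with no call. This was 33.3% of the list against 7.85% of all genes. The 3 became 0 without E– replicate 4, without E+ replicate 2 or in the fit of all 24 pools, and 1 without E– replicate 1. gch2, needed for the yellow pteridine pigment, had 53.7, 54.0, 50.2 and 43.2 CPM in E– pools, against 56.3, 67.9, 56.1 and 54.4 CPM in E+ pools (log2FC -0.22, FDR = 0.583), and SOX10, a regulator of the crest, had a log2FC of -0.17 (FDR = 0.686). XDH, xanthine dehydrogenase, had 5.07 to 7.92 CPM in E– pools and 3.57 to 4.21 CPM in E+ pools (log2FC 0.68, FDR = 0.398). In the eye and lens list 15 genes were tested with no call, and 2 were higher and 3 lower at p under 0.05 (33.3%). The crystallin CRYBB1 of this list had 23.6, 29.7, 29.9 and 24.6 CPM in E– pools, against 34.0, 39.5, 55.2 and 24.4 CPM in E+ pools (log2FC -0.51, FDR = 0.380). E+ replicate 3 was the highest for this gene and for cryba1b (log2FC -0.49, FDR = 0.389), and the 3 eye and lens genes that were lower at p under 0.05 became 0 without that pool. foxe3, a lens transcription factor, had 4.05 to 5.67 CPM in E– pools and 1.61 to 3.92 CPM in E+ pools (log2FC 0.82, FDR = 0.444).

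**Figure D4:**
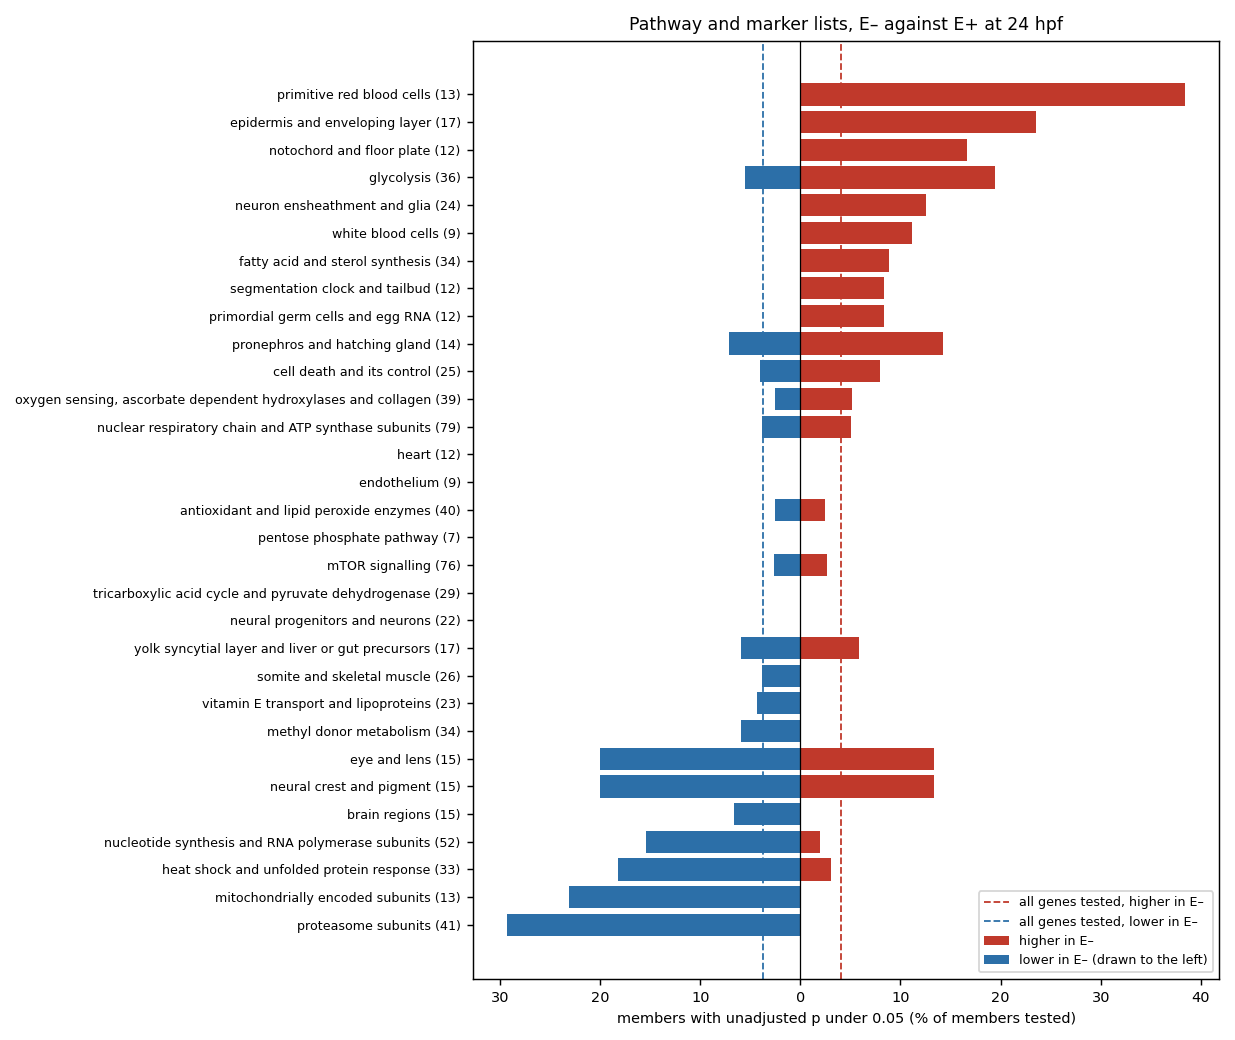
Share of the tested members of each pathway or marker list (number tested in parentheses) with an unadjusted p under 0.05 at 24 hpf, higher in E– embryos to the right and lower to the left. Dashed lines are the shares of all 17405 genes tested, 4.09% higher and 3.76% lower. The proteasome bar reaches 29.3% on the lower side, and the primitive red blood cell bar 38.5% on the higher side.

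The study named 20 genes for their change at 24 hpf, and by symbol these matched 24 identifiers. Some symbols are shared by several identifiers, so the 24 include copies that the study did not name. The study chose its genes on these pools, so their direction here is not independent evidence. Of the 24, 11 had enough reads to be tested and 13 did not. The tested genes included the called zgc:173585 and DOCK11. dntt, a DNA polymerase that adds bases without a template, had 5.40, 2.91, 3.44 and 3.67 CPM in E– pools, against 1.54, 0.921, 1.96 and 1.59 CPM in E+ pools, with no overlap (log2FC 1.34, SE 0.33, FDR = 0.185). zgc:101562 had 0.540, 0.291, 1.46 and 1.45 CPM in E– pools, against 1.68, 3.19, 2.73 and 2.68 CPM in E+ pools (log2FC -1.48, SE 0.45, FDR = 0.336). LOXHD1 (ENSDARG00000074638), named for the lipoxygenase homology domains of a hair cell protein, had 1.08 to 7.43 CPM in E– pools, against 25.0 CPM in E+ replicate 1 and 1.89 to 5.26 CPM in the other E+ pools (log2FC -1.40, FDR = 0.541).

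The 13 that were too low to test had between 2 and 88 reads in all 8 pools together. POLR3C had 12, 15, 5 and 20 reads in E– pools, against 2, 2, 13 and 3 reads in E+ pools. cngb3.2, a cyclic nucleotide-gated channel subunit, had 10, 11, 10 and 5 reads in E– pools, against 4, 3, 6 and 3 reads in E+ pools. si:dkey-73p2.2 had 1, 1, 3 and 2 reads in E– pools, against 5, 15, 48 and 13 reads in E+ pools. Scaled for depth, cngb3.2 had 0.482 to 0.900 CPM in E– pools and 0.184 to 0.309 CPM in E+ pools, with no overlap. For POLR3C and si:dkey-73p2.2 the reads of single pools differ several-fold. E+ replicate 3 is the pool that overlaps the E– range for POLR3C and the highest for si:dkey-73p2.2. serpina7 had 0 reads in each E– pool and 2 reads in 1 E+ pool, and olfce2 had 10, 2, 2 and 7 reads in E– pools, against 6 reads in E+ replicate 3 and 0 in the other E+ pools. These genes had no test in the fit of 17405 genes. When all genes with reads were kept, all 24 identifiers were tested and 7 were called, against 2 in the fit of 17405 genes.

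Whole profiles were compared by the distance between pools. The mean distance over the 500 genes that differed most between a pair of pools was 2.12 ± 0.14 between E– pools and 1.90 ± 0.044 between E+ pools (SD, 6 pairs each), and 2.06 ± 0.11 between the diets (SD, 16 pairs). The mean distance between the diets exceeded the mean over the pairs within both diets by 0.0464 (p = 0.0286, exact permutation test, one-sided, n = 4 pools each, the smallest p that 35 splits allow). This did not hold for the E– pools alone, which on average lay farther from each other than from the E+ pools. Without any 1 of the E+ pools the difference was between 0.00723 and 0.0160 (exact p from 0.429 to 0.514), and without any 1 of the E– pools it was between 0.0692 and 0.105. Leaving out an E+ pool removes E+ pairs from the mean within the diets, so the more distant E– pairs weigh more there. Leaving out an E– pool does the reverse. E– replicate 2 stood apart from the other 7 pools on the first dimension of a multidimensional scaling, which held 19.1% of the variation. On the second dimension, which held 17.3%, the E– pools ran from -0.012 to 1.1 and the E+ pools from -0.65 to -0.40, so the diets did not overlap there.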

How the data were processed

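RNA from pools of 10 whole embryos was made into Lexogen QuantSeq 3′ mRNA libraries (forward kit) and sequenced as single-end reads on a HiSeq3000. The authors checked reads with FastQC 0.11.5, trimmed them with bbduk, aligned them to GRCz11 with STAR 2.7.3a and deposited raw counts of reads per Ensembl gene, with no normalization or gene filter. Reads carry no molecular identifiers here, so depth describes counting error only, and a gene at 1 CPM had 10.4 to 19.4 reads per pool. Which strand was counted is not stated, so overlapping genes on opposite strands cannot be told apart.

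The 4 tallies of unassigned reads were left out of library sizes and tests. No column was left unused. Symbols came from a table that paired 29201 of 32520 identifiers. Some symbols are shared by several identifiers, which are then printed beside the symbol. The table gives many genes the capitals of the human symbol, and names are printed as it has them. No coordinates or sequences are given, because no genome or annotation of the GRCz11 build was used here.

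In R 4.3.3 with edgeR 4.0.16, genes were kept by filterByExpr (minimum count 10), scaled by TMMwsp, fitted over the 8 pools with common, trended and tagwise dispersions and tested by the quasi-likelihood F-test of earlier edgeR versions. FDR is the Benjamini–Hochberg value over all genes tested, and genes with an FDR under 0.1 were called. The SE is the log2FC divided by the square root of F. Library measures and distances were compared by exact permutation tests. Replicate pools differed by more than sampling noise (chi-square per degree of freedom 5.07 to 8.11). The fit was also run on simulated counts, and the outcome is not reported here. Alternatives were DESeq2 1.42.0, TMM, all genes with reads, the newer quasi-likelihood method, a robust prior and sequencing lane as a term. Others were a block for the replicate number, thinned counts, all 24 pools, leaving out the 13 mitochondrially encoded subunits, and leaving out each pool. A fit without the gene with the most counts, and the list counts in each fit, were added after seeing the data. Figures used Python 3.11.15 and matplotlib 3.10.9.

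Genes were named by rule: every called gene up to 15 in each direction, each direction filled to 12 with the smallest-p genes that have a symbol, at least 1 CPM and no overlap, up to 4 members of each list by p besides its called and defining members, the genes the study named at 24 hpf, and the gene with the most counts. PYGM (ENSDARG00000055518), hspa1b, ALDOA (ENSDARG00000034470) and further list members such as LDHA, PKLR and HSPA5 were named after their values were seen. Some genes that the rule names are not reported here. The comparison and the lists were chosen with earlier results of these data known.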

Additional observations from a re-analysis of the deposited data

Results flagged for a closer look

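Groups of 4 pools numbered 128 (8 library measures, the called and next-ranked genes and the summed lists, in each diet). In 2 of them the gap from 1 pool to the nearest other pool took most of the range. Independent groups of normal values would be flagged in about 1 in 20, or 6.4. The genes here were chosen on these same pools and some lists share genes, so the 2 cannot be read against that rate. For mt-atp8, E+ replicate 2 stood at 46.7 CPM and the other E+ pools at 27.4 to 28.7 CPM (gap over range 0.914). For zgc:174154, E+ replicate 1 stood at 21.2 CPM and the other E+ pools at 76.4 to 84.9 CPM (gap over range 0.924).

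The diet effect differed between ages in 3 genes (edgeR interaction test over 24 pools, adjusted p = 0.0898 for each), and none of them was called at 24 hpf. nfkbiaa, an inhibitor of NF-κB, had a log2FC of 0.76 at 12 hpf, -1.35 at 18 hpf and 0.50 at 24 hpf. COL1A1, a collagen chain, had -0.81 at 12 hpf, 0.30 at 18 hpf and -0.04 at 24 hpf, and si:dkey-154b15.1 had -0.53, 1.43 and 0.42 at these ages.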

How the results depend on the processing

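The number of calls, 21 in the main fit (11 higher and 10 lower in E–), varied with the fit and with the pool left out. With a robust prior it was 16, and 14 of these were among the 21. The number was 160 (105 higher, 55 lower) with all genes that had a read, 77 (51 and 26) with DESeq2, 29 (17 higher) with the newer quasi-likelihood method, 15 (7 higher) after thinning, 10 at an FDR under 0.05 and 0 (0 and 0) in the fit of all 24 pools, where 1308 genes had an unadjusted p under 0.05. Leaving out 1 pool gave 2 to 35 calls, 0 to 21 higher and 2 to 14 lower, and 1132 to 1706 genes with p under 0.05, against 1366 with all pools and 2088 with all genes that had a read. Of the called genes tested, 276 of 397 values in the other fits stayed under an FDR of 0.1, and none changed sign. These fits reuse the pools on which the genes were called, so the shared sign is not independent support. With the replicate number as a block (replicate block) 27 genes were called, 15 higher and 12 lower, 19 of them among the 21, but same-numbered pools did not deviate together (correlations of their deviations -0.029 to 0.0043), so the number was not used as a pairing. Genes whose diet effect differed between ages numbered 3, and 122 with all genes that had a read. The mean distance between the diets exceeded the mean within them by 0.0160, 0.00898, 0.0123 and 0.00723 without E+ replicate 1, 2, 3 and 4, with no test under 0.05. The difference was 0.0692 to 0.105 when 1 E– pool was left out. Leaving out an E+ pool gives the more distant E– pairs more weight in the mean within the diets. The difference in genes with reads was -590.5 and after thinning -141. The cause of the changes in the number of calls was not tested. The E– pools tended to be shallower, and genes near 1 CPM rest on few reads there.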

Other observations

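Further lists gave values outside the comparisons above, with no call in any of them. Of 12 notochord and floor plate genes 2 were higher at p under 0.05 (16.7% against 7.85% of all genes). The floor plate marker ntd5 had 63.5, 58.2, 57.8 and 63.3 CPM in E– pools, against 48.4, 46.5, 46.9 and 53.6 CPM in E+ pools, with no overlap (log2FC 0.31, FDR = 0.261), and tbxta, the Brachyury gene of the notochord, had a log2FC of 0.38 (FDR = 0.614). Among 25 genes of cell death and its control 2 were higher and 1 lower at p under 0.05 (12%). Of these, casp8, a caspase that starts cell death, had 9.18, 3.63, 7.31 and 7.33 CPM in E– pools, against 4.27, 4.05, 4.23 and 2.61 CPM in E+ pools (log2FC 0.84, FDR = 0.350), whereas BAX, a pore former of the mitochondrion, had 25.6 to 27.1 CPM in E– pools and 29.8 to 32.1 CPM in E+ pools (log2FC -0.24, FDR = 0.560).

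Of 34 genes of fatty acid and sterol synthesis 3 were higher at p under 0.05 (8.82%). insig1, which holds back sterol synthesis, had 46.7, 36.2, 45.5 and 61.1 CPM in E– pools, against 37.5, 37.8, 36.8 and 36.2 CPM in E+ pools (log2FC 0.35, FDR = 0.424), so that E– replicate 2 lay at the E+ level. Of 12 genes tested of the segmentation clock and tailbud, 9 had a negative log2FC (median -0.20) and 1 had a p under 0.05 (8.33%). This 1 ran the other way. It was mespaa, a transcription factor of the forming somite, which had 1.89, 2.47, 1.29 and 2.41 CPM in E– pools, against 1.12, 0.737, 0.928 and 0.290 CPM in E+ pools (log2FC 1.37, FDR = 0.424).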
